A study of Mus musculus with 12 samples.

Results

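The 10 genes described here encode enzymes that build or edit heparan sulfate: *Ext1*, *Ext2*, *Ndst1*, *Ndst2*, *Glce*, *Hs2st1*, *Hs6st1*, *Hs6st2*, *Sulf1* and *Sulf2*. They were taken by gene symbol from the 21859 genes of the expression table, and all 10 were found. The group was chosen by the log2 RPM values of *Sulf1*, whose difference between cryptorchid and control cells was already known from these libraries. Its values in that contrast, and those of the genes grouped with it, are therefore given as a description. The call rule and the 95% intervals printed for these genes are descriptions and are not used as tests. The intervals give the precision of a difference of means, judged from the spread between libraries and in part from other genes. Since *Sulf1* was chosen for its difference, that difference and its interval may be too high.

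RNA of GFRa1+/KIT- spermatogonia was profiled in 12 libraries, 5 from control and 7 from cryptorchid testes. All cells came from male GFRa1-EGFP mice, 8 to 10 weeks old, in which EGFP marks cells that use the gene of the GDNF receptor GFRa1; the labels give the genotype of the control samples as WT. Surgery placed 1 testis of each mouse, the left, in the abdomen, the untouched right testis served as the control, and samples were taken on day 10. The sort kept EGFP-positive cells without the differentiation receptor KIT, about 1000 per sample, and RNA equal to about 200 cells went into Smart-seq2, a full-length cDNA method with PCR and without molecular identifiers. Tubules were digested for 9 min at 32°C for control and at 37°C for cryptorchid testes, so that the condition and the digestion temperature cannot be told apart. Since no source used here says which libraries share a mouse, the errors below rest on the spread between libraries, which may in part be technical.

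Heparan sulfate is a long, negatively charged sugar chain carried by core proteins at the cell surface and in the extracellular matrix. In the Golgi, EXT enzymes extend the chain, NDST enzymes swap acetyl for sulfate groups on glucosamine, GLCE turns glucuronic into iduronic acid, and sulfotransferases then add sulfate at the 2-O and 6-O positions. The SULF enzymes act outside the cell, where they take 6-O-sulfate off finished chains. The pattern of sulfate groups sets which growth factors a chain binds, and GDNF and FGF2, on which spermatogonial stem cells depend, are both heparin-binding factors.

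*Sulf1* and *Sulf2* are closely related, and a stretch of their coding sequences is shown because reads from identical stretches could be shared between the 2 genes. The windows are 60 bases long, from GENCODE vM21 transcripts on GRCm38, and are printed 5′ to 3′. They cover coding bases 134 to 193 of *Sulf1* and 137 to 196 of *Sulf2*, and capitals mark the longest run that both coding sequences share.
Sulf1: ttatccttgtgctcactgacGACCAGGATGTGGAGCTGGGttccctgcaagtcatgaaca
Sulf2: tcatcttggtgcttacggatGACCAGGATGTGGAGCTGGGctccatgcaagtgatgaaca
The shared run was 20 bases long, and 51 of the 60 bases were identical. The coding sequences are 2610 and 2625 bases long. The longest shared runs of the other pairs were 12 bases for *Ext1* and *Ext2*, 23 bases for *Ndst1* and *Ndst2*, and 20 bases for *Hs6st1* and *Hs6st2*. No run was longer than 23 bases in the coding sequences of these 4 pairs. Untranslated parts of the exons, on which reads also fall, were not compared. *Sulf1* lies at chr1:12692277-12861192 on the plus strand of GRCm38, and its exons overlap no other annotated gene. Exons of *Sulf2* overlap the protein-coding *Ncoa3* on the other strand by 154 bases, and those of *Hs6st1* overlap the antisense gene *Gm37335* by 447 bases. The exons of *Glce* contain the microRNA gene *Mir5133*. Smart-seq2 libraries carry no strand information, so reads in these overlaps cannot be assigned. *Sulf2* and *Hs6st1*, which have few reads, are the more uncertain for it.

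The 12 libraries held 3306771 to 24345368 reads on genes. All values below 1000 reads were whole numbers of reads within a tolerance of 0.01. Of the reads behind the scaling, 74.5% to 94.0% were on genes in replicates 1 to 3 and 94.8% to 99.9% in replicates 4 and above, and the share of genes with an even number of reads, among those with few, was 53.2% to 60.8% and 48.2% to 50.5%. The labels give no batch, so values are also shown within each of these sets of libraries. The 11 markers listed for undifferentiated spermatogonia, with *Gfra1*, *Zbtb16* and *Ret* among them, had reads in every library. Their sum was 2471 to 3576 RPM (reads scaled to the library total) in control and 2363 to 3824 RPM in cryptorchid libraries. The list includes *Dazl* and *Ddx4*, which mark germ cells more broadly. These 2 had the highest means (1137 and 473 RPM in control, 1090 and 689 RPM in cryptorchid libraries), so the sum can hide changes of the others. Within a group, any 2 libraries differed by more than the sampling of reads allows (12.8 to 253 times), which does not tell whether they came from separate mice.

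All 10 genes had reads in every library and passed the limit on low values. A gene was called at a 2-fold difference and an unadjusted *P*-value under 0.05 by limma. By that rule 1 of the 10, *Sulf1*, was called higher in cryptorchid cells and 0 were called lower, where 3.56% of the 16932 genes tested were called higher and 2.36% lower (5.92% in all). *Sulf1* was also the 1 gene of the 10 whose 7 cryptorchid libraries all lay above the 5 control libraries, as did those of 0.555% of all genes tested. Nothing is read from these counts, since the genes were chosen with this contrast known. The mean was higher in cryptorchid cells for 7 of the 10 genes and lower for 3, where the same shares over all genes were 56.7% and 43.3%. After median centring or quantile normalization of the libraries 6 of the 10 had the higher mean. The median log2 difference was 0.19 over the 10 genes and 0.12 without *Sulf1*, beside 0.10 over all genes tested. Without control replicate 3 the median over the 10 genes came to -0.0003, and in replicates 1 to 3 alone to -0.02.

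**Figure D1:**
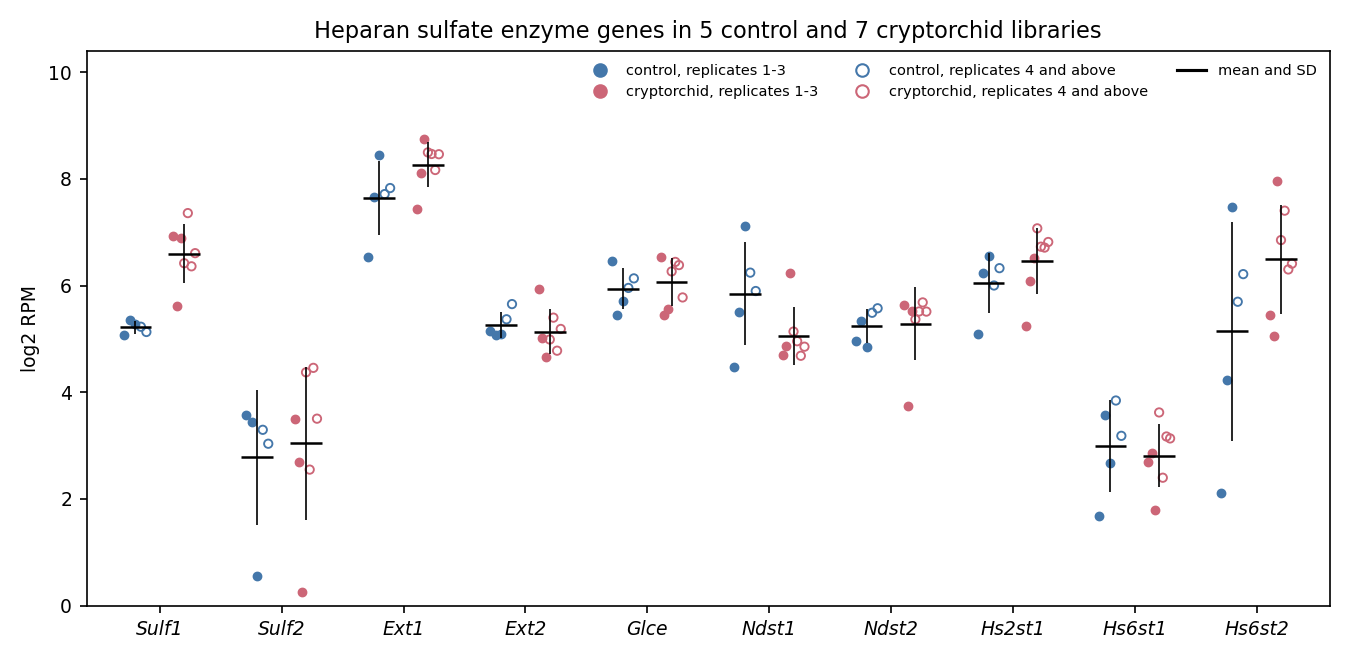
Expression of the 10 genes as log2 RPM on the vertical axis, with 1 point per library (filled, replicates 1 to 3; open, replicates 4 and above) and the mean and SD of each group as lines. The *Sulf1* points of the 5 control libraries sit between 5.07 and 5.36, below all 7 cryptorchid points, whereas the groups overlap for the other 9 genes.

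*Sulf1* removes 6-O-sulfate from heparan sulfate outside the cell. In the control libraries its level was 5.07, 5.36, 5.28, 5.23 and 5.13 log2 RPM in replicates 1 to 5. In the cryptorchid libraries the lowest level was 5.61 (replicate 2), the median 6.61 and the highest 7.36 log2 RPM (replicate 5). The control libraries were nearly level with each other, over a range of 0.28, while the cryptorchid libraries spread over 1.75, and the groups did not overlap. The nearest libraries of the 2 groups, control replicate 2 and cryptorchid replicate 2, were 0.25 apart. The difference of the means was 1.38 on the log2 scale (SE 0.279, 95% interval 0.80 to 1.97), or 2.61-fold (95% interval 1.74 to 3.92), with means of 5.21 ± 0.115 (SD, n = 5) and 6.60 ± 0.555 (SD, n = 7). Within the sets of libraries it was 1.24 in replicates 1 to 3 and 1.51 in replicates 4 and above, and leaving out each library in turn gave 1.26 to 1.55. These levels rest on 158 to 1178 reads per control and 374 to 2731 reads per cryptorchid library.

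In RNA from a pool of sorted cells, fewer cells of a type and less RNA per cell cannot be told apart. Markers of other testis cells were therefore read in the same libraries. The 10 Sertoli cell markers summed to 23.8 to 88.6 RPM in control and 19.3 to 73.2 RPM in cryptorchid libraries, with 0 called. Of these 10 markers, 7 had reads in every library, with *Sox9*, *Wt1* and *Gata4* among them. *Amh* was without reads in 5 of 5 control and 5 of 7 cryptorchid libraries. The 5 peritubular myoid markers summed to 1.46 to 16.5 and 0.714 to 14.5 RPM, with 1 of 4 tested called higher (*Des*, log2 difference 2.55, without reads in 3 of 5 control libraries) and *Acta2* without reads in 3 libraries of each group. The 5 Leydig cell markers summed to 8.64 to 15.5 and 5.29 to 47.8 RPM, with 0 of 3 tested called, and nearly all of it was *Star*, since *Cyp11a1*, *Cyp17a1* and *Hsd3b1* were without reads in 6 or more libraries. The 5 macrophage markers summed to 3.13 to 23.5 and 6.90 to 30.9 RPM, with 0 called. Endothelial markers moved with the condition: their sum was 10.0 to 28.4 RPM in control and 19.2 to 46.8 RPM in cryptorchid libraries, and 3 of 5 were called higher (*Cdh5* by 2.01, *Tie1* by 2.86 and *Vwf* by 1.80 on the log2 scale). *Tie1* was without reads in 4 of 5 control libraries, and its value, like that of *Des*, depends on the floor given to such libraries. Of the 5 markers of differentiating spermatogonia, which summed to 229 to 656 and 281 to 555 RPM, *Stra8* was called higher (log2 difference 1.09) and *Dnmt3b* lower (-1.20). The called marker genes had adjusted *P*-values between 0.215 (*Dnmt3b*) and 0.456 (*Vwf*) by limma. The part of these cells in the *Sulf1* values was not tested.

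*Sulf2* carries out the same reaction as *Sulf1*. It stood at 3.57, 3.45, 0.56, 3.30 and 3.03 log2 RPM in control replicates 1 to 5, and at 0.25 (replicate 3), 3.49 and 4.46 (replicate 6) as the lowest, median and highest cryptorchid libraries. Replicate 3 was far below the rest in both groups, with 15 and 10 reads, and the groups overlapped over nearly their whole range. The difference was 0.26 (SE 0.718, 95% interval -1.25 to 1.78). Its sign depended on which libraries were used: it was -0.38 in replicates 1 to 3, 0.56 in replicates 4 and above, and -0.29 without control replicate 3. Whether *Sulf1* and *Sulf2* differ in response was not tested.

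*Ext1* and *Ext2* together form the polymerase that lengthens the chain. *Ext1* stood at 6.53, 7.66, 8.44, 7.71 and 7.83 log2 RPM in control replicates 1 to 5, and its lowest, median and highest cryptorchid values were 7.43 (replicate 1), 8.46 and 8.75 (replicate 3). Replicate 1 was the lowest and replicate 3 the highest in both groups, and 4 of the 7 cryptorchid libraries lay above all controls. The difference was 0.63 (SE 0.316, 95% interval -0.03 to 1.30), close to the values within the sets (0.55 and 0.63), and 0.36 without control replicate 1. *Ext2* stood at 5.15, 5.07, 5.09, 5.37 and 5.65 log2 RPM in the controls. Its lowest, median and highest cryptorchid libraries were at 4.66 (replicate 3), 5.01 and 5.93 (replicate 1). Here 4 of the 7 cryptorchid libraries were below all controls and 1 was above them, for a difference of -0.13 (SE 0.278, 95% interval -0.71 to 0.45), with 0.10 in replicates 1 to 3 and -0.42 in replicates 4 and above.

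*Ndst1* and *Ndst2* make the first sulfation, on which the later steps build. *Ndst1* had the lowest difference of the 10 genes. Its control replicates 1 to 5 were at 4.47, 5.51, 7.11, 6.24 and 5.90 log2 RPM, and its cryptorchid libraries at 4.68 (replicate 6), 4.86 and 6.24 (replicate 3) as the lowest, median and highest. The controls spread over 2.64, from below every cryptorchid library to above every one, so that all 7 cryptorchid libraries lay within the control range. The difference was -0.78 (SE 0.393, 95% interval -1.61 to 0.04), with -0.43 in replicates 1 to 3, -1.16 in replicates 4 and above, -0.47 without control replicate 3 and -1.13 without control replicate 1. *Ndst2* was at 4.97, 5.34, 4.85, 5.49 and 5.57 log2 RPM in the controls and at 3.75 (replicate 2), 5.51 and 5.68 (replicate 6) in cryptorchid cells. Its difference was 0.04 (SE 0.335, 95% interval -0.67 to 0.74), and cryptorchid replicate 2 alone lay more than 1 log2 unit under every other library of its group. Without that library the difference was 0.30.

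*Glce* encodes the C5-epimerase and *Hs2st1* the 2-O-sulfotransferase that works on its product, and the groups overlapped for both. *Glce* ranged from 5.45 to 6.46 log2 RPM in control and from 5.45 to 6.53 log2 RPM in cryptorchid libraries, almost the same range in both groups. Its difference was 0.12 (SE 0.277, 95% interval -0.47 to 0.70), and -0.01 without control replicate 2. *Hs2st1* was at 5.10, 6.24, 6.55, 6.0 and 6.33 log2 RPM in control replicates 1 to 5 and at 5.24 (replicate 1), 6.71 and 7.07 (replicate 4) as the lowest, median and highest cryptorchid libraries. Replicate 1 was again the lowest of both groups, and 4 of 7 cryptorchid libraries were above all controls. The difference was 0.41 (SE 0.328, 95% interval -0.28 to 1.10). It was -0.01 in replicates 1 to 3 and 0.67 in replicates 4 and above.

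*Hs6st1* and *Hs6st2* add the 6-O-sulfate that the SULF enzymes remove. *Hs6st2* had a difference nearly as large as that of *Sulf1* but a much larger spread. Its control replicates 1 to 5 were at 2.11, 4.24, 7.47, 5.70 and 6.21 log2 RPM, and the lowest, median and highest cryptorchid libraries at 5.06 (replicate 2), 6.41 and 7.96 (replicate 3). The controls covered 5.36 log2 units, the widest range of the 10 genes, and 6 of 7 cryptorchid libraries fell inside it. The difference was 1.35 (SE 0.699, 95% interval -0.12 to 2.82), with 1.56 and 0.79 within the sets. It rested in large part on 1 library: without control replicate 1 it was 0.59, and without control replicate 3 it was 1.93. *Hs6st1* was at 1.68, 3.58, 2.67, 3.84 and 3.18 log2 RPM in the controls and at 1.79 (replicate 3), 2.86 and 3.62 (replicate 4) as the lowest, median and highest cryptorchid libraries. All 7 cryptorchid libraries lay within the control range, for a difference of -0.18 (SE 0.507, 95% interval -1.25 to 0.88), which was 0.03 without control replicate 4. It rested on 18 to 343 reads per library.

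**Figure D2:**
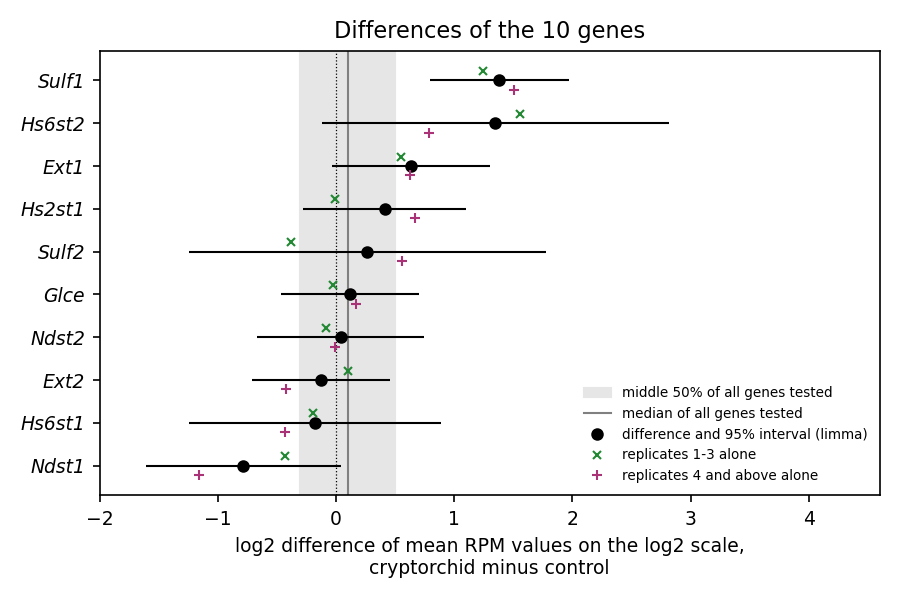
Log2 difference of each gene, cryptorchid minus control, on the horizontal axis (point, all 12 libraries with the 95% interval of limma; cross, replicates 1 to 3; plus, replicates 4 and above), with the median and the middle 50% of all 16932 genes in grey. *Sulf1* lies at 1.38 and *Hs6st2* at 1.35 with a wider interval, and *Ndst1* is lowest at -0.78.

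The plot of differences shows the 10 genes in order. The difference had the same sign in both sets of libraries for 6 of the 10 genes. For the middle 50% of all genes tested it lay between -0.30 and 0.50.

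The start regions of the 6-O-sulfotransferase genes are printed because the 2 genes carry out the same step but differed in level and in spread. The RefSeq windows (GRCm38.p6, 250 bases before to 50 after a start, 5′ to 3′) matched 7 of the 10 genes with 9 windows. *Sulf1*, *Ext1* and *Ndst1* were not matched. Capitals mark CG dinucleotides. The first window is chr1:36068150-36068449 on the plus strand, and the second, the upstream one of 2 *Hs6st2* starts, is chrX:51681553-51681852 on the minus strand.
Hs6st1: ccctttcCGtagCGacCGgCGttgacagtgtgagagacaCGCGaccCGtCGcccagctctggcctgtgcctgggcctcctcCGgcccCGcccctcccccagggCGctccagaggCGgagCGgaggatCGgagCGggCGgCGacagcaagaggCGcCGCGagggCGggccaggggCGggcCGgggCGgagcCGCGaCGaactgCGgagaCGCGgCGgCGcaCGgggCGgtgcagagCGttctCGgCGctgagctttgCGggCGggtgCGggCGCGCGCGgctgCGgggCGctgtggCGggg
Hs6st2: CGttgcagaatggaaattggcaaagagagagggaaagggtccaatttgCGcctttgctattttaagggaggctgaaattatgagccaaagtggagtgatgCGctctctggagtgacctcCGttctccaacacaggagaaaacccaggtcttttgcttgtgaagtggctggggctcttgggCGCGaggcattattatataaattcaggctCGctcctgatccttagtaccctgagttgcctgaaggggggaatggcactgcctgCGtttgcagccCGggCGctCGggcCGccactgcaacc
The *Hs6st1* window held 47 CG dinucleotides, and 98.6% of the 32851 RefSeq windows held fewer. The *Hs6st2* window held 12, and its other start, at chrX:51680428-51680727, held 33. Over all windows the median was 7 (quartiles 3 and 20), and all 9 windows of the enzyme genes lay above it. The letters TATAAA, searched on both strands, were found in 2 of the 9 windows, in the printed one of *Hs6st2* and in 1 of *Sulf2*, and in 13.6% of all windows. Such a match describes the sequence and does not show a working site.

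Levels of different genes were compared per kilobase of exon (log2 RPM per kb, with merged exons of GENCODE vM21). In control cells *Ext1* was the highest at 4.62 ± 0.692 (SD, n = 5). It was followed by *Glce* (3.17), *Ndst2* (3.06), *Hs2st1* (3.01), *Ndst1* (2.80), *Ext2* (2.39), *Hs6st2* (2.18) and *Sulf1* (1.72), none of which stood apart from its neighbour beyond the spread (the pooled SD of the 2 genes). *Hs6st1* (0.52) and *Sulf2* (0.23) followed below a gap. In cryptorchid cells *Ext1* was again the highest at 5.25 ± 0.430 (SD, n = 7). *Hs6st2* (3.53), *Hs2st1* (3.42), *Glce* (3.29), *Ndst2* (3.10) and *Sulf1* (3.10) followed, again with no gap between neighbours beyond the spread. *Ext2* (2.26) and *Ndst1* (2.01) came below a gap, and *Sulf2* (0.49) and *Hs6st1* (0.34) below another. *Sulf1* was thus in the 8th place in control and in the 6th in cryptorchid cells.

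A ratio between related genes within a library does not depend on the library total used for scaling. *Sulf1* exceeded *Sulf2* per kilobase in 5 of 5 control and 7 of 7 cryptorchid libraries, with a mean log2 ratio of 1.49 ± 1.30 (SD, n = 5) among the former and 2.61 ± 1.67 (SD, n = 7) among the latter. The highest ratio of each group, 3.79 and 5.69, was in replicate 3, where *Sulf2* had its fewest reads, and 2 of 7 cryptorchid libraries lay above all controls. *Ext1* exceeded *Ext2* in every library, with ratios of 2.23 ± 0.712 (SD, n = 5) and 2.99 ± 0.798 (SD, n = 7), and 3 of 7 cryptorchid libraries lay above all controls. *Ndst1* over *Ndst2* averaged -0.26 ± 1.03 (SD, n = 5) in the controls and -1.09 ± 0.824 (SD, n = 7) after surgery, and 4 of 7 cryptorchid libraries lay below all controls. *Hs6st2* over *Hs6st1* was 1.66 ± 1.81 (SD, n = 5) and 3.19 ± 1.39 (SD, n = 7), and it was above 0 in 4 of 5 control and 7 of 7 cryptorchid libraries. The 2 groups overlapped for all 4 ratios. Control replicate 3 had the highest control ratio of all 4 pairs and control replicate 1 the lowest.

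**Figure D3:**
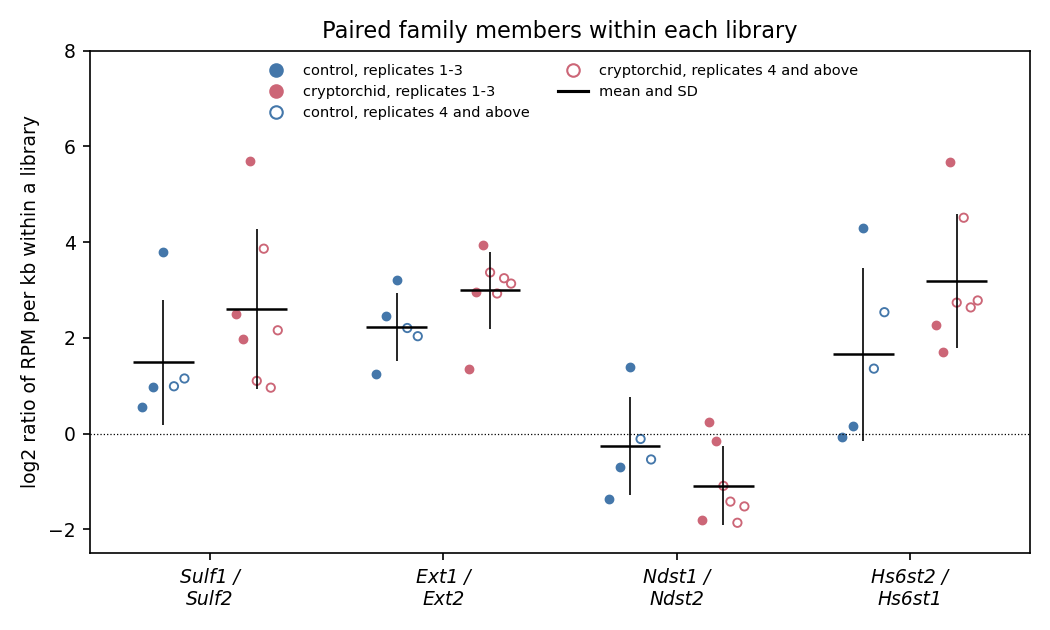
Log2 ratio of RPM per kb between 2 related genes within each library on the vertical axis, with points as in the plot of levels and the mean and SD of each group. The groups overlap for each pair, and the *Sulf1* ratio is highest in replicate 3 of both groups (3.79 and 5.69).

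Over the 12 libraries, the profile of *Sulf1* was compared with that of each gene tested by the root mean square difference of log2 RPM after each gene was centred on its own mean. The 5 nearest were *Septin9*, a cytoskeletal GTPase (0.38), the zinc finger gene *Zfp235* (0.39), *Map6*, which stabilises microtubules (0.39), *Gins3*, a subunit of the replicative helicase (0.41), and *Adgrb3*, an adhesion G protein-coupled receptor (0.42). For comparison the median over all genes was 1.10, and *Sulf1* lay 0.79 from its own mean. Of the other 9 enzyme genes, *Ext1* was the nearest (0.70) and *Sulf2* the farthest (1.5). The order rests largely on the difference between the groups, by which *Sulf1* was chosen, so it is a description of these libraries.

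**Figure D4:**
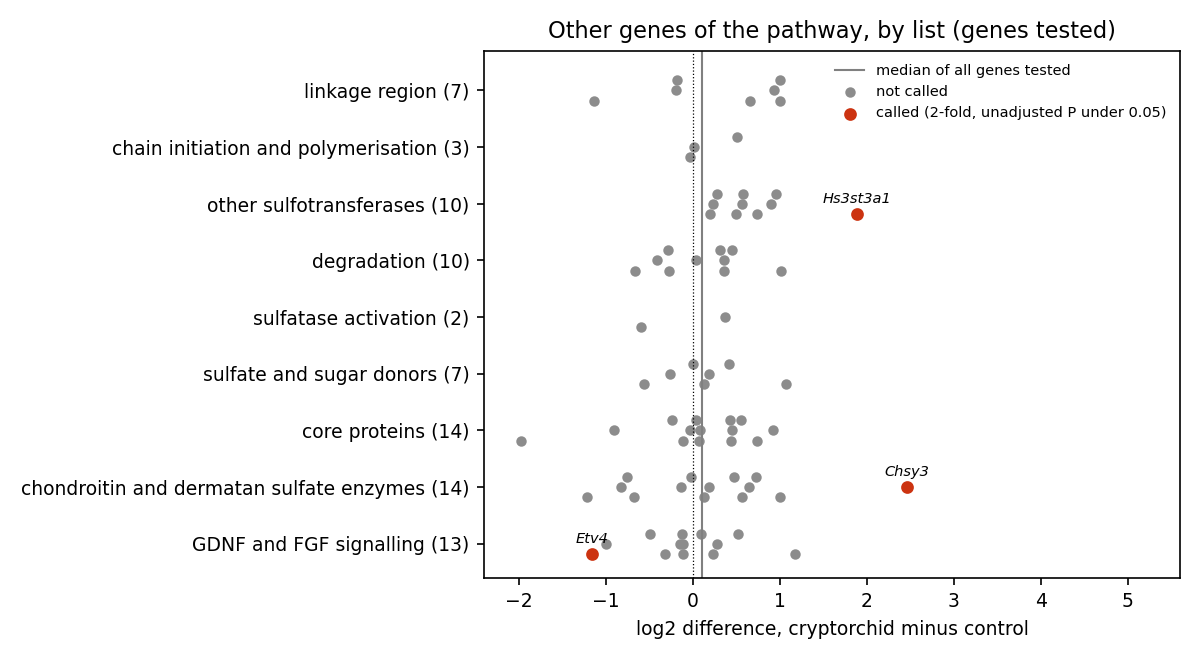
Log2 difference, cryptorchid minus control, of 80 further genes of the pathway in 9 lists, 1 point per gene, with the number tested in brackets and called genes in red. *Hs3st3a1* and *Chsy3* lie to the right at 1.89 and 2.46, *Etv4* to the left at -1.16, and all 10 other sulfotransferases lie above 0.

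Beyond these 10 genes, 82 genes that make, carry or degrade heparan sulfate or the related chondroitin sulfate, or that signal for factors bound by it, were listed, and 80 were tested (*Chst3* and *Chst7* were under the limit). Of these, 2 (2.50%) were called higher and 1 (1.25%) lower, beside 3.56% and 2.36% of all genes, and 0 had an adjusted *P*-value of limma under 0.05, which 0.0118% of all genes (2) had. These adjusted counts were far higher with array weights (4 of the 80 and 476 of all genes) and with a block for the replicate number (5 and 949). With a term for the set of libraries they were 0 and 46. An unadjusted *P*-value under 0.05 was found for 10 of the 80, and for 9.48% of all genes. With each library left out in turn, 1 to 7 were called higher and 1 to 4 lower, the most without control replicate 3 (7 and 4) and cryptorchid replicate 1 (6 and 4). The mean was higher in 50 and lower in 30, and the median difference was 0.18.

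The linkage region is the short sugar stem that joins the chain to its core protein. Of its 7 genes 0 were called. *Fam20b*, the kinase that primes the stem for extension, had its 7 cryptorchid libraries (5.93 to 7.34 log2 RPM) above its 5 control libraries (5.55 to 5.82), by 0.66 (SE 0.263, unadjusted *P* = 0.0217, adjusted *P* = 0.436 by limma). With each library left out, the *Fam20b* difference ran from 0.49 (without cryptorchid replicate 3, its highest library) to 0.73. Median centring gave 0.59 (unadjusted *P* = 0.0708 by limma). *Xylt1*, which attaches the first sugar, was at 2.91 to 3.78 log2 RPM in control and at 3.77 to 4.73 in cryptorchid libraries, so that the groups overlapped only where the highest control library met the lowest cryptorchid one. Its difference of 1.0 was just under the 2-fold limit (SE 0.344, unadjusted *P* = 0.00961, adjusted *P* = 0.366 by limma), and it exceeded that limit without control replicates 1 (1.03), 3 (1.12) or 4 (1.0) or without cryptorchid replicates 1 (1.09), 3 (1.05) or 6 (1.04). Of the 3 further genes that start or extend the chain 0 were called, with *Extl2* at a difference of 0.50 and *Extl3* at -0.04.

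The other sulfotransferases comprise 10 genes, mostly the 3-O-sulfotransferases that make rare, specific motifs. The mean of all 10 was higher in cryptorchid cells, where 56.7% of all genes had the higher mean, and their median difference was 0.57. The smallest difference was 0.20 (*Hs3st3b1*, SE 0.532). After quantile normalization the mean was higher for 9 of them. It was higher for 7 in replicates 4 and above, for 7 with array weights and for 7 with the replicate block. By the call rule 1 of the 10 was called. That gene was *Hs3st3a1*, with 0 to 33 reads per control and 4 to 69 per cryptorchid library. Its levels overlapped between the groups (-2.61 to 1.17 and -0.19 to 2.93 log2 RPM), and the difference was 1.89 (SE 0.805, unadjusted *P* = 0.0306, adjusted *P* = 0.473 by limma). It was no longer called when control replicate 4, the library without reads, was left out (1.26), nor without cryptorchid replicates 3 (1.70), 5 (1.71) or 7 (1.82). *Hs3st1* was the most abundant of the list (65.2 RPM per kb) and stood at 5.87 to 7.43 log2 RPM in control and at 6.56 to 7.94 in cryptorchid libraries. Its difference of 0.89 did not reach 2-fold (SE 0.304, unadjusted *P* = 0.00877, adjusted *P* = 0.362 by limma), although it did without control replicate 3 (1.12) or cryptorchid replicate 1 (1.04).

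Of the 10 genes that degrade the chain 0 were called. *Hpse2*, a relative of heparanase, had a difference of 0.46 (SE 0.354), which was 0.18 without control replicate 1 and 0.73 without control replicate 3. *Sumf1*, which activates all sulfatases, SULF enzymes included, had a difference of 0.37 (SE 0.268), and its relative *Sumf2* one of -0.60 (SE 0.455), which passed the call rule without control replicate 3 (-1.02). Of the 7 genes that supply sulfate and sugar donors 0 were called either. Among them *Papss1*, which makes the sulfate donor, was at -0.26, *Slc35b3*, which carries that donor into the Golgi, at 0.42, and *Uxs1*, which makes UDP-xylose, at -0.56 (-0.34 without cryptorchid replicate 2).

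The 14 core proteins had a median difference of 0.08, and 0 were called. *Sdc4*, a syndecan, was the most abundant (260 RPM per kb), at 9.33 to 9.67 log2 RPM in control and 8.50 to 9.71 in cryptorchid libraries, with a difference of -0.24 (SE 0.285). The glypican *Gpc6* was at 4.23 to 5.87 log2 RPM in control and at 5.43 to 6.47 in cryptorchid libraries, with a difference of 0.93 (SE 0.304, unadjusted *P* = 0.00705, adjusted *P* = 0.350 by limma). It passed the 2-fold limit without control replicate 3 (1.13) and without cryptorchid replicates 1 (1.01) or 2 (1.02). *Hspg2*, which encodes the matrix proteoglycan perlecan, was lower by 0.91 on average (5.32 to 7.61 against 4.62 to 6.86 log2 RPM), with an unadjusted *P* = 0.0485 and an adjusted *P* = 0.524 by limma. It was called lower without control replicates 1 (-1.11) or 2 (-1.15) or without cryptorchid replicate 3 (-1.15).

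Of the 14 tested genes for chondroitin and dermatan sulfate, which are built on the same stem, 1 was called. *Chsy3*, a chondroitin synthase, had 0 to 36 reads per control and 0 to 198 per cryptorchid library, and 1 library of each group had none. The difference was 2.46 (SE 1.06, unadjusted *P* = 0.0328, adjusted *P* = 0.479 by limma) and depends on the value given to libraries without reads. The call was lost without control replicates 2 (2.31), 3 (2.0) or 4 (2.26) and without cryptorchid replicates 1 (2.07), 2 (2.24), 4 (2.33) or 6 (2.36), with *P*-values of limma of up to 0.0920. *Chst11*, which sulfates chondroitin, was the most abundant of the list and had a difference of 1.0 (SE 0.581, unadjusted *P* = 0.102 by limma), with 0.31 in replicates 1 to 3 and 1.32 in replicates 4 and above. It was called higher without control replicate 3 (1.32) or without cryptorchid replicates 1 (1.28) or 2 (1.35).

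The last list holds 13 genes of GDNF and FGF signalling, whose ligands bind heparan sulfate. Here 0 were called higher and 1 lower, and the median difference was -0.12. The called gene was *Etv4*, a transcription factor induced by both pathways, at 3.79 to 5.32 log2 RPM in control and at 2.48 to 5.0 in cryptorchid libraries. Its difference was -1.16 (SE 0.488, unadjusted *P* = 0.0285, adjusted *P* = 0.469 by limma), with -0.59 in replicates 1 to 3 and -1.5 in replicates 4 and above. It was not called without control replicates 1 (-0.98) or 2 (-1.06) or without cryptorchid replicates 4 (-1.04), 5 (-1.01) or 6 (-1.04). *Fgfr2*, the most abundant gene of the list (122 RPM per kb), was at 10.0 to 10.5 log2 RPM in both groups, with a difference of 0.09 (SE 0.301). *Fgfr1*, named here after its values were seen, had the smallest *P*-value of the 80 genes. It was at 5.96 to 6.32 log2 RPM in control and at 4.02 to 6.08 in cryptorchid libraries, with a difference of -0.998 just under the 2-fold limit (SE 0.304, unadjusted *P* = 0.00419, adjusted *P* = 0.291 by limma). The difference was -0.55 in replicates 1 to 3 and -1.36 in replicates 4 and above. It passed the limit with median centring (-1.07) and quantile normalization (-1.06) and in 6 of 12 fits with 1 library left out (control replicates 1, 3 and 4 and cryptorchid replicates 1, 2 and 5), which gave -1.16 to -0.82.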

How the data were processed

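RNA was measured in 5 control and 7 cryptorchid libraries of GFRa1+/KIT- spermatogonia, grouped by the sample titles. The authors trimmed the reads (Trim Galore 0.6.6), mapped them to mm10 (HISAT2 2.1.0), used SeqMonk for read counts of protein-coding genes, and deposited them as log2 RPM, in which a gene without reads stands at 0.9 reads. FastQC 0.11.8 is also in the submitters' processing notes. All 12 columns belonged to samples and 0 to none. Reads were recovered from the steps of the values, and they cover counting error only.

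The values were fitted, unpaired, with limma 3.58.1 in R 4.3.3 (lmFit, eBayes with trend) over the 16932 genes whose mean RPM exceeded -1 on the log2 scale. The authors used edgeR; here limma was kept for the log2 values, and the recovered reads entered an alternative fit with voom. Adjusted *P*-values are Benjamini-Hochberg values over all genes tested. On simulated data for this comparison (16932 genes), 91.5% of 200 genes changed by log2 3 were recovered, and 5.34% of unchanged genes had *P* under 0.05 by limma. Changes nearer the 2-fold limit were not simulated, so the recovery of differences like those reported here is not known. The simulated noise was independent between libraries, without the sets or any sharing between same-numbered libraries.

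Named genes are the 10 enzymes, called genes of each list or else up to 2 with the smallest *P*-values, the most abundant gene per list by RPM per kb, and the 5 profiles nearest to *Sulf1*. *Des*, *Cdh5*, *Tie1*, *Vwf*, *Stra8* and *Dnmt3b* are the called markers. A named gene of the lists is not reported here. The members and lists were chosen with earlier results of these data known. Alternatives were log2(RPM + 1), median centring, quantile normalization, no filter, a filter at 2, a common floor, ratios of mean RPM (0.1 RPM added), voom on recovered reads, array weights, a replicate block, a term for the set, each set alone and each library left out. Tables and plots used Python 3.11.15, numpy 2.4.6, pandas 2.3.3 and matplotlib 3.10.9.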

Additional observations from a re-analysis of the deposited data

Results flagged for a closer look

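In 60 groups of libraries (30 genes in control and in cryptorchid cells), 7 had 1 library farther from the rest than Dixon's test allows, which chance gives in about 1 of 20 groups. Among the 10 enzyme genes these were *Sulf2* in control replicate 3 (0.56 log2 RPM, 15 reads, next lowest 3.03), *Ndst1* in cryptorchid replicate 3 (6.24 log2 RPM, next highest 5.14) and *Ndst2* in cryptorchid replicate 2 (3.75 log2 RPM, 150 reads, next lowest 5.37). Among the other genes of the pathway they were *Fam20b* in cryptorchid replicate 3 (7.34 log2 RPM, next highest 6.39), *Sumf1* in control replicate 2 (4.57 log2 RPM), *Sumf2* in control replicate 3 (3.06 log2 RPM) and *Slc35b3* in cryptorchid replicate 2 (4.69 log2 RPM).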

How the results depend on the processing

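The *Sulf1* difference ran from 1.24 (replicates 1 to 3 alone) to 1.51 (replicates 4 and above alone), and from 1.26 to 1.55 with each library left out. As its groups did not overlap, no choice of libraries could turn its sign, so nothing is read from the sign being kept. The median over the 10 enzyme genes ran from -0.02 to 0.36 under the other alternatives and from -0.0003 to 0.31 with each library left out. All 230 alternative values of the 10 genes were within 1 SD between libraries of the reported ones. This is a wide limit: leaving out 1 library cannot move a value that far, and the common floor left the 10 values unchanged. Within it, *Hs6st2* moved from 1.35 to 0.59 without control replicate 1. *Sulf2* kept its sign in 20 of 23 alternatives and *Ndst2* in 12 of 23. The counts of other pathway genes called (2 higher, 1 lower) were less stable. Lower calls came to 3 with median centring, 3 with quantile normalization, 2 with a term for the set, 0 in replicates 1 to 3 alone, 4 in replicates 4 and above alone and 4 with array weights. Higher calls came to 0 with the filter at 2, at which *Hs3st3a1* and *Chsy3* were not tested, 8 with array weights, 0 in replicates 1 to 3 alone and 5 in replicates 4 and above alone. With each library left out, higher calls ranged from 1 to 7 and lower calls from 1 to 4. *Extl3* turned sign with array weights (0.11), in replicates 4 and above alone (0.080) and with a library left out (range -0.28 to 0.22), and *Sdc4* in replicates 1 to 3 alone (0.022). Otherwise the cause was not tested.

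Over all genes, 603 were called higher and 399 lower (60.2% higher), against 532 and 501 (51.5%) with median centring, 457 and 542 (45.7%) with quantile normalization, 785 and 497 with voom, 882 and 703 with array weights, 287 and 345 in replicates 1 to 3 alone and 635 and 705 in replicates 4 and above alone. Same-numbered libraries correlated at 0.347, 0.363, 0.411, 0.25 and 0.0488 in their deviations from the group means. Control replicates 1 to 4 matched their own number best, and control replicate 5 matched cryptorchid replicate 7. These correlations do not settle whether the numbers pair the samples. As no source used here says which libraries share a mouse, the reported fits were unpaired, and the *P*-values depend on that choice. With the replicate block, *Sulf1* differed by 1.43, the median over the 10 genes was 0.02, 2 other pathway genes were called higher and 2 lower, and over all genes 778 were higher and 900 lower. An adjusted *P*-value under 0.05 by limma was found for 2 genes as reported, 949 with the block, 476 with array weights and 46 with the term for the set. Of the 80 other pathway genes these were 5 with the block (*Uxs1*, *Fam20b*, *Hspg2*, *Hs3st1* and *Gpc6*), 4 with array weights (*Hs3st1*, *Xylt1*, *Fgfr1* and *Gpc6*) and 0 with the set term. *Hs3st3a1* and *Chsy3* had libraries without reads, where depth sets the value.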
